A study of Mus musculus with 12 samples.

Results

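Mature oligodendrocytes, the cells that build and keep the myelin sheath, were taken from a single-nucleus RNA-seq survey of mouse primary motor cortex, dissected at its caudal forelimb area. A nucleus was counted as one when it held at least 3 UMIs (unique molecular identifiers, each standing for 1 captured RNA) of Mog, Mag, St18, Prr5l and Aspa together. It could hold at most 2 UMIs of the neuronal genes Slc17a7, Gad1 and Gad2, at most 1 of the lineage genes Pdgfra, Enpp6 and Bmp4, and at most 1 of Csf1r, Flt1 and Gli3, which mark microglia, endothelium and astrocytes. The rule found 6149 nuclei among 51683 that passed both filters (500 genes or more, mitochondrial UMIs below 5%), or 11.9%. Trained mice 2, 4 and 6 gave 886, 781 and 626 of them, and control mice 1, 3 and 5 gave 1291, 1529 and 1036. All mice were 13 weeks old, on restricted water (1 mL a day), and the right hemisphere was dissected. The 3 trained mice earned part of that water on days 11 to 13 by pressing a lever with the left paw while head-fixed, in daily sessions of 100 trials, whereas the 3 control mice drank all of it in the home cage and had no motor training. Head fixation, reward and pressing therefore came together in the trained group and cannot be told apart. Strain, sex and genotype were not given in the sources used here.

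Oligodendrocytes arise from Pdgfra-positive precursors, pass a short differentiating stage marked by Enpp6 and Bmp4, and then wrap axons in membrane that is rich in cholesterol, galactolipids and a few very abundant proteins. In the rodent motor cortex, the making of new oligodendrocytes is known to accompany motor learning, and mature cells are known to feed axons, buffer potassium and carry steroid hormone receptors. Nuclear RNA reports transcription and RNA kept in the nucleus, not protein or myelin.

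The nuclei were shallow. Their median was 1788 UMIs, against 7132.5 UMIs in all other kept nuclei, and their summed counts ranged from 1530858 to 3220499 UMIs per mouse. The median per mouse was 1630 to 2041.5 UMIs in trained and 1625 to 1929 UMIs in control mice. Among the nuclei of the rule, 3 barcode sequences occurred in more than 1 mouse, and 6 nuclei carried them.

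Most nuclei fitted the name, and a minority did not. The 8 myelin genes counted here, among them Mbp, Mobp, Mal and Cldn11, are not read by the rule and made up a median of 1.53% of UMIs in the nuclei of the rule and 0% in all other nuclei. Of the nuclei of the rule, 354 (5.76%) held under 0.5% of such UMIs. Nuclei just inside the threshold, with 3 UMIs of the 5 rule genes, had a median myelin share of 1.16%, and nuclei just outside it, with 2 such UMIs, had 0.0146%. Scrublet, a doublet caller, marked 299 nuclei (4.86%) as likely pairs, and it marked 78.7% of the nuclei over 8000 UMIs. The 178 nuclei over 8000 UMIs held 16.3% of all UMIs in the sums, with a median myelin share of 0.223% and a median share of 0.467% for neuronal genes, against 0.0623% for neuronal genes in nuclei with 1000 to 2000 UMIs.

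A second kind of nucleus entered mostly through Aspa, an aspartoacylase gene that is not confined to oligodendrocytes. These 35 nuclei held at least 5 UMIs of 8 genes usual in fibroblasts (Dcn, Slc6a13, Col1a1, Col1a2, Lum, Bnc2, Eya2 and Tbx15), a list chosen after the values were seen. They had a median of 3 Aspa UMIs, 0 UMIs of the other 4 rule genes and a myelin share of 0.0175%, and 25 came from trained and 10 from control mice. Results below are therefore given for all nuclei of the rule and, where it matters, after a purity filter that left 5706 nuclei. The filter asks for at least 0.5% myelin UMIs, under 5 UMIs of the 8 fibroblast genes and no Scrublet mark.

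The genes that stood highest over all other nuclei describe a myelinating cell. The rule chose the nuclei by expression, so these levels are a description with no test, in CPM (UMIs scaled to the total of the class in each mouse) without further scaling. Mal, a myelin lipid raft protein gene, averaged 1501 ± 203 CPM in the nuclei of the rule (SD, n = 6 mice) and 10.4 CPM in all other nuclei. Cldn11, the tight junction protein gene of myelin, averaged 1347 ± 163 CPM against 12.3 CPM. Mobp, a myelin structural protein gene, averaged 979 ± 72.7 CPM against 10.4 CPM, and Ermn, which encodes a cytoskeletal protein of the outer tongue of myelin, 376 ± 45.4 CPM against 2.60 CPM. Other leading genes were Prr5l, Mog, St18, Mag and Aspa of the rule itself, Fa2h, which hydroxylates the fatty acids of galactolipids, Car2, a carbonic anhydrase gene, Tspan2, Anln and Sec14l5. The ratio of the leading genes named here over all other nuclei, with 5 CPM added to both, ran from 42.9 (Anln) to 98.1 (Mal).

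Detection of these genes outside the lineage was low but not nil. After every nucleus was thinned to 1000 UMIs, Mal had a UMI in 73.1% of 5703 mature nuclei, in 0.778% of 1285 precursors and in 0.998% of astrocytes, which should lack it. Mog, the outermost myelin glycoprotein gene, had one in 65.3% of mature nuclei and in 0.340% of astrocytes.

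**Figure D1:**
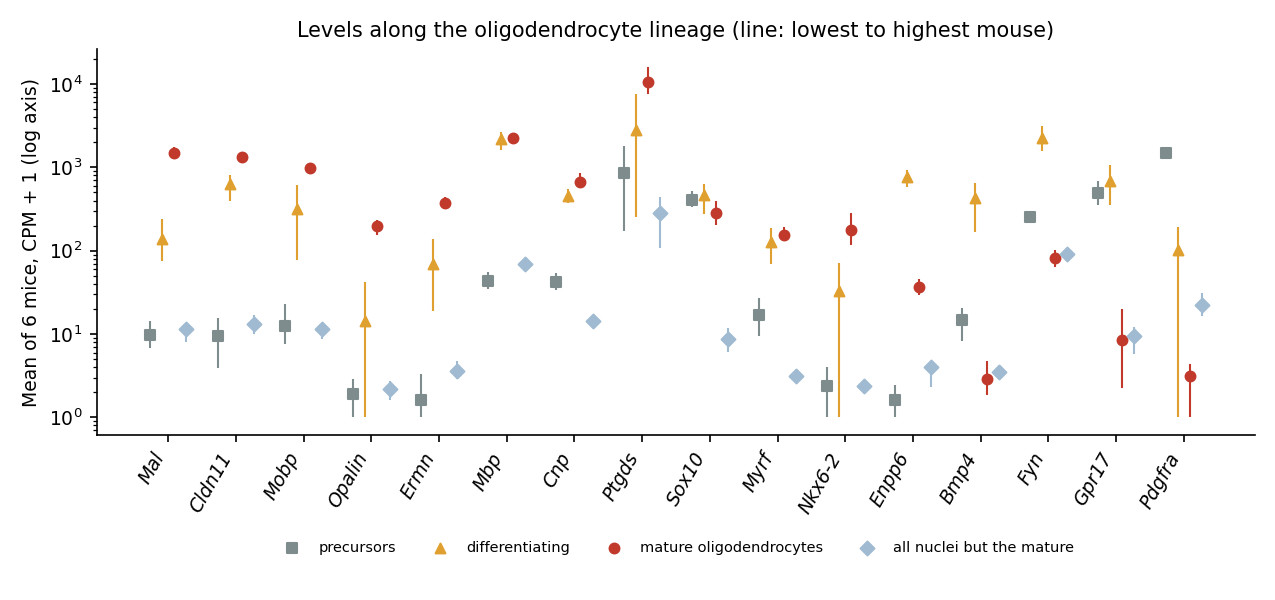
Mean level over 6 mice, in CPM + 1 on a log axis, of 16 genes in precursors, differentiating nuclei, mature oligodendrocytes and all nuclei but the mature ones, with lines from the lowest to the highest mouse. Mal, Mobp, Opalin and Ermn stand highest in the mature nuclei, and Fyn stands highest in the differentiating ones. Enpp6, Bmp4, Gpr17 and Pdgfra were read by the rules that chose the classes, so their order follows from the selection.

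Along the lineage, genes showed 3 patterns. Precursors (1290 nuclei) and differentiating nuclei (163) were chosen by similar rules on Pdgfra, Cspg4 and C1ql1 and on Enpp6, Bmp4 and Gpr17, so only other genes are compared here, again without a test. Genes of late myelin stood at 0.884 CPM (Opalin) and 0.624 CPM (Ermn) in precursors, at 13.2 CPM and 69.1 CPM in differentiating nuclei, and at 195 CPM and 376 CPM in mature nuclei. Opalin encodes a membrane protein found in oligodendrocytes of mammals. Mbp, which encodes myelin basic protein, was already at 2183 CPM in differentiating and 2228 CPM in mature nuclei, against 41.7 CPM in precursors. Ugt8a, the galactosyltransferase that makes galactocerebroside, stood at 136 CPM in precursors, 441 CPM in differentiating and 474 CPM in mature nuclei.

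Genes of the differentiating stage ran the other way. Fyn, a Src-family kinase gene that acts downstream of axon contact, stood at 254 CPM in precursors, 2269 CPM in differentiating and 80.2 CPM in mature nuclei. Tcf7l2, a transcription factor of that stage, stood at 183 CPM, 2038 CPM and 109 CPM. The lineage regulator Sox10 was present throughout, at 402 CPM, 460 CPM and 280 CPM, while Myrf, the factor that switches on myelin genes, stood at 15.9 CPM, 125 CPM and 155 CPM and Nkx6-2 at 1.38 CPM, 31.8 CPM and 174 CPM. Differentiating nuclei were few, 15 to 39 per mouse, and their values spread accordingly.

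SOX10 and its relatives bind short sites such as ACAAAG and ACAATG, so the bases before the start sites of leading genes were read for these letters on either strand. RefSeq held promoters for 11 of the 15 leading genes (GRCm38.p6), 16 windows of 250 bases before a start site. ACAAAG was in 5 of the 16 and ACAATG in 3 of the 16, against 16.5% and 10.7% of 32851 promoters of all genes. Some windows belong to 1 gene, and a pair of Mag windows overlap and share their match, so by gene ACAAAG was in windows of 4 of 11 and ACAATG in those of 2 of 11, against 18.6% and 12.2% of 27025 genes. The 3 windows below are shown because they hold matches and belong to a rule gene or a myelin protein gene. They read 5′ to 3′ on the gene's strand, and capitals mark a match to either motif or its reverse complement, with overlapping matches merged.
Mag (chr7:30914864-30915113, minus strand): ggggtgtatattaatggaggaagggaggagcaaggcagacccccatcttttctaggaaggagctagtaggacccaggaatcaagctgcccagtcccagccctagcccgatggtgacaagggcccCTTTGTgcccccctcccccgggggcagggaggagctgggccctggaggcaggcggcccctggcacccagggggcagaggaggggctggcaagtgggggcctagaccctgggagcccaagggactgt
Prr5l (chr2:101883028-101883277, minus strand): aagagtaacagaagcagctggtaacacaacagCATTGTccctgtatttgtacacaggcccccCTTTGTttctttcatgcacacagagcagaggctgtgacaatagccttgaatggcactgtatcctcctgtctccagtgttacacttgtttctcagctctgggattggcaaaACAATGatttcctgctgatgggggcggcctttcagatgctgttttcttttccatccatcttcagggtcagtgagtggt
Mobp (chr9:120149492-120149741, plus strand): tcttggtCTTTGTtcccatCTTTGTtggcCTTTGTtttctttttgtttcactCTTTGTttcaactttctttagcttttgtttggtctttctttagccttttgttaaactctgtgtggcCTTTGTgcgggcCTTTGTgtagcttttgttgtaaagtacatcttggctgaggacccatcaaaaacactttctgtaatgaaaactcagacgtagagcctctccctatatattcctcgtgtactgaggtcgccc
The Mobp window held 6 matches, the Prr5l window 3 and the Mag window 1. These are letter matches, not measured binding sites.

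Within the class, some RNAs varied among nuclei of the same mouse beyond counting noise, and fewer varied strongly after the purity filter. The measure was the variance of UMIs over their mean among nuclei thinned to 1000 UMIs, which is near 1 for counting noise alone, as the median over 6 mice. Over all nuclei of the rule, Trpm3 led with 21.9, a gene seen in 3.42% of nuclei. Kcnip4, Gpc5, Lsamp, Lrrtm4 and Rbfox1 lay between 3.66 and 6.50. Only genes with a mean of at least 0.05 UMI per thinned nucleus were ranked. Of 3621 such genes 51 reached 2, against 13 of 3578 after the filter. Their median was 1.06 before and after the filter. The cut at 2 was a choice, and smaller excesses over 1 were not tested. In the filtered nuclei Malat1, a long non-coding RNA kept in the nucleus, had 17.5 (13.9 to 19.8), and Ptgds, which encodes prostaglandin D synthase, 7.65 (6.78 to 9.11). Fth1, which encodes the heavy chain of the iron store ferritin, had 2.70, and the adhesion genes Pcdh9 and Pcdh11x had 2.98 and 2.12. The other genes by the same rank were Frmd4a, Grm7, Kirrel3, Nkain2 and Plcl1, between 2.11 and 2.57, and Frmd4a ranged from 0.998 to 7.02 between mice.

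Genes that mark maturation states in other surveys of these cells showed which states were present. In 5276 thinned nuclei of the purity filter, Ptgds had a UMI in 91.8%, Grm3 in 67.3%, Car2 in 65.4%, Neat1 in 56.6% and Apoe in 53.3%. Il33, a nuclear cytokine gene of mature grey matter oligodendrocytes, had one in 27.0% and Opalin in 18.3%. Klk6, a protease gene of another mature state, had one in 1.19%, and the reactive genes C4b and Serpina3n in 0.663% and 0.265%. In all other nuclei at the same depth Il33 stood at 1.42%, Opalin at 0.233%, Klk6 at 0.0470%, C4b at 0.295% and Serpina3n at 0.132%, so both reactive genes were found in under 1% of either set.

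Klk6 was also set beside other state genes. Of the 63 thinned nuclei with Klk6, 0 had Opalin and 4 had Il33, against 966 and 1423 of all 5276 nuclei. A count of 0 in 63 allows a share of up to 4.76% with an Opalin UMI at this depth, by counting error alone, which does not limit nuclei that express Opalin. Apod, which encodes a secreted lipocalin, was in 90.5% of the 63 and in 56.8% of the others, and Hapln2, a link protein gene of the node of Ranvier, in 61.9% and 32.2%. These are nuclei of 6 mice pooled, given as a description. The Klk6 share was 0.751% to 1.75% in trained and 0.902% to 1.48% in control mice, so the groups overlapped.

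The share of mature nuclei was lower in the trained mean, and the exact test at 3 mice a group could not pass 0.05. They made up 12.5%, 9.03% and 11.3% of kept nuclei in trained mice 2, 4 and 6, against 12.7%, 12.2% and 13.5% in control mice 1, 3 and 5. The means were 10.9% ± 1.76 in trained and 12.8% ± 0.634 in control mice (SD, n = 3 each). A two-sided exact permutation test gave p = 0.2, and 3 against 3 mice cannot go below 0.1. Trained mouse 2 lay within the range of the controls. When nuclei with any UMI of the exclusion genes were left out, the share was 6.36% to 8.03% in trained and 8.30% to 8.68% in control mice, without overlap and with an exact permutation p of 0.1. Per precursor there were 6.07 ± 2.46 mature nuclei in trained and 4.70 ± 0.827 in control mice (SD, n = 3 each), with an exact permutation p of 0.4 on the log2 ratio, and trained mouse 6 stood highest with 72 precursors. Precursors themselves made up 1.95% ± 0.572 of nuclei in trained and 2.77% ± 0.423 in control mice (SD, n = 3 each; exact permutation p of 0.1), with no overlap. Differentiating nuclei per 100 mature ones numbered 2.81 ± 0.877 in trained and 2.58 ± 0.190 in control mice (exact permutation p of 0.7, n = 3 each). Shares of nuclei are relative to all nuclei recovered, not counts of cells in the tissue.

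**Figure D2:**
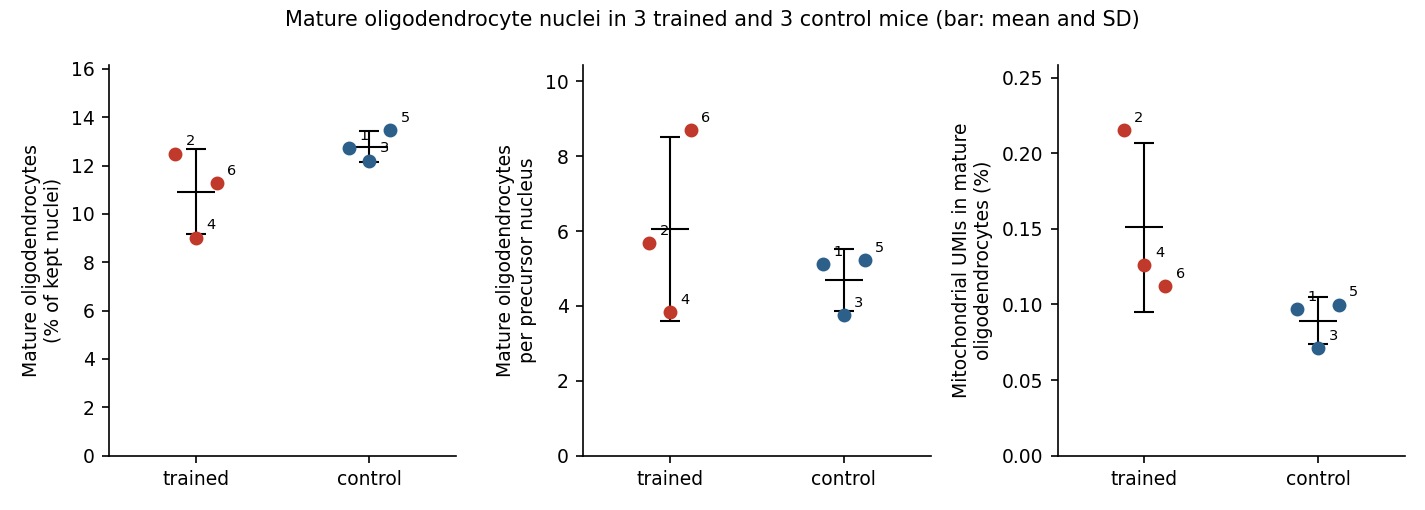
Share of mature oligodendrocytes among kept nuclei (%), mature nuclei per precursor nucleus, and mitochondrial share of UMIs in mature oligodendrocytes (%), for 3 trained mice (left) and 3 control mice (right), with mouse numbers, group means and SD. The groups overlap in the first and second measure, and all trained mice lie above all controls in the third.

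No gene differed between trained and control mice past the threshold. Sums of UMIs per mouse were compared over 11664 genes with the quasi-likelihood test of edgeR, and 0 genes (0.0%) had a Benjamini-Hochberg adjusted p under 0.05. Unadjusted, 553 genes (4.74%) had a p under 0.05. DESeq2 called 9 genes (0.0772%), all higher in trained mice. All 3 trained mice lay above all 3 controls for 5.18% of genes and below them for 4.99%, so the groups lay apart for 10.2%, and 50.2% of genes had a log2 fold change above 0. After the purity filter edgeR called 0 of 10720 genes (470, or 4.38%, unadjusted) and DESeq2 called 0 (196, or 1.83%, unadjusted). The groups then lay apart upwards for 4.99% and downwards for 5.04% of genes, and 51.4% had a log2 fold change above 0.

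The genes of smallest p that were higher in trained mice were mostly genes of the 35 nuclei with fibroblast genes. Bnc2, a zinc finger gene of connective tissue, stood at 45.6, 44.4 and 111 CPM in trained mice 2, 4 and 6, against 16.8, 17.4 and 7.93 CPM in control mice 1, 3 and 5 (CPM here and below with TMM scaling). Its log2 fold change was 2.20 ± 0.35 (SE), with an edgeR adjusted p of 0.141, and 96.4% of its UMIs came from the 35 nuclei. Because Bnc2, Eya2 and Tbx15 helped to choose those nuclei, their shares are a description. Of the genes that did not, the 35 nuclei held 89.3% of the UMIs of Slc47a1, 88.9% of Slc9a2, 86.4% of Bmp6, 63.8% of Ror1, 62.9% of Mgp, a matrix protein gene, and 45.9% of Igfbp5, an IGF-binding protein gene. Such nuclei made up 1.16% ± 0.657 of the class in trained and 0.247% ± 0.128 in control mice (SD, n = 3 each), with no overlap. These shares are a description too, since the genes that chose the nuclei were picked after the values were seen. Bnc2, Eya2 and Tbx15, which led the higher side, are among them, so a test of the groups could not decide. After the purity filter Igfbp5 had a log2 fold change of 0.86 ± 0.34 and Mgp 0.91 ± 0.38, and the other 7 genes named here were too low to test. All trained mice still lay above all controls for both, beside 4.99% of all genes. Igfbp5 was then at 8.33 to 11.2 CPM in trained and 4.54 to 6.24 CPM in control mice. Mgp was at 8.04 to 14.4 CPM in trained and 3.27 to 7.49 CPM in control mice.

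H3f3b was the exception among the 10 genes that led the higher side. It encodes the histone variant H3.3, which is placed into chromatin outside of DNA replication, and lies on mm10 chromosome 11, 116021912 to 116027962, minus strand. Its level was 332, 377 and 343 CPM in trained mice 2, 4 and 6, against 191, 252 and 219 CPM in control mice 1, 3 and 5. All trained mice lay above all controls. The log2 fold change was 0.67 ± 0.14 (SE, edgeR adjusted p = 0.398), and DESeq2 called it with an adjusted p of 0.0390. The 35 nuclei held 1.03% of its UMIs, and its log2 fold change was 0.67 ± 0.15 after the purity filter (edgeR adjusted p = 0.991). DESeq2 called 0 genes after that filter, so its call of H3f3b was lost. Reads of H3.3 genes can be shared with processed copies, so the count is uncertain.

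Among the genes that led the lower side, several belong to neurons. Nuclei over 5000 UMIs held 78.1% of the UMIs of Cdh7, a cadherin gene, 77.1% of those of Kcnj3, a potassium channel gene, and 65.5% of those of Epha7, an ephrin receptor gene. Over all genes they held 15.6% to 26.7% of the UMIs of a mouse. The 12 neuronal marker genes summed to 2664 to 3596 CPM in trained and 3040 to 3427 CPM in control mice, and to 1349 to 1664 CPM and 1409 to 1755 CPM after the purity filter. None of the 12 was at 0, and their part in the result was not tested.

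Ninj2 and Nsd2 kept their fold changes after the purity filter. Ninj2, which encodes the adhesion protein ninjurin 2, had 94.3% of its UMIs in nuclei of the purity filter. It stood at 200, 220 and 221 CPM in trained mice 2, 4 and 6, against 325, 262 and 308 CPM in control mice 1, 3 and 5, with no overlap. The log2 fold change was -0.48 ± 0.14 (SE, edgeR adjusted p = 0.871), and -0.50 ± 0.15 after the filter. Nsd2, a histone H3 lysine methyltransferase gene, averaged 67.6 ± 2.91 CPM in trained and 93.8 ± 1.28 CPM in control mice (SD, n = 3 each). Its log2 fold change was -0.47 ± 0.13 (edgeR adjusted p = 0.820), and -0.49 ± 0.15 after the filter. Nuclei of the purity filter held 73.3% of the Nsd2 UMIs, and nuclei over 5000 UMIs held 24.9%. Over all genes, nuclei over 5000 UMIs held 15.6% to 26.7% of the UMIs of a mouse, so the Nsd2 share lay within that range. The share of all UMIs held by nuclei of the purity filter was not computed. Further genes of the lower side were Hpgds, Meis2, Serpine3 and Ddit4l, with log2 fold changes from -1.55 to -0.51. After the filter Serpine3 had -1.33 ± 0.42 without overlap, Hpgds -1.05 ± 0.43 and Meis2 -0.27 ± 0.16 with overlap, and Ddit4l was too low to test. Hpgds encodes a prostaglandin D synthase of blood-derived cells and microglia.

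After the purity filter, the same rule put Hist1h4d, a histone H4 gene, first on the higher side (2.39 ± 0.47, edgeR adjusted p of 0.462). Its filtered level was low, at 7.20 to 16.1 CPM in trained and 0.545 to 3.33 CPM in control mice. H3f3b, mt-Co1 and mt-Co3 came next, followed by Rnpep, an aminopeptidase gene, and Sh3bp2, an adaptor protein gene. Rnpep averaged 200 ± 19.9 CPM in trained and 115 ± 35.6 CPM in control mice (SD, n = 3 each, all nuclei of the rule), with a log2 fold change of 0.83 ± 0.20 after the filter. Sh3bp2 averaged 26.6 ± 1.07 CPM in trained and 15.1 ± 2.57 CPM in control mice, with 0.81 ± 0.21 after the filter. The edgeR adjusted p was 0.991 for both.

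No myelin gene was called between the groups. Of 23 listed genes of compact and outer myelin, 21 were tested and 0 were called, with 10 fold changes above 1 and 11 below it. In 0 of them did the groups lie apart, beside 10.2% of all genes. The median log2 fold change was -0.01, against 0.00 over all genes tested, and members ranged from -0.12 to 0.26. Mal stood at 1760, 1775 and 1421 CPM in trained mice 2, 4 and 6, against 1468, 1361 and 1306 CPM in control mice 1, 3 and 5. Trained mouse 6 lay within the control range, and the log2 fold change was 0.26 ± 0.15 (SE). In the filtered nuclei Mal was the 1 member whose groups lay apart, beside 10.0% of all genes. It then stood at 1896 to 2061 CPM in trained and 1643 to 1807 CPM in control mice (0.21 ± 0.13). Cldn11 had 0.12 ± 0.15, Gjb1, the connexin 32 gene, 0.10 ± 0.17, Gsn, which encodes the actin-severing protein gelsolin, 0.09 ± 0.15, Opalin -0.12 ± 0.17, Tmem88b -0.10 ± 0.16 and Tppp, a microtubule protein gene, -0.12 ± 0.19. Of the rule genes, given without a test, St18 had -0.27, Prr5l -0.15, Aspa -0.01 and Mag 0.15, and Mog stood at 1030, 1110 and 1087 CPM in trained mice 2, 4 and 6 against 959, 1060 and 997 CPM in control mice 1, 3 and 5.

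**Figure D3:**
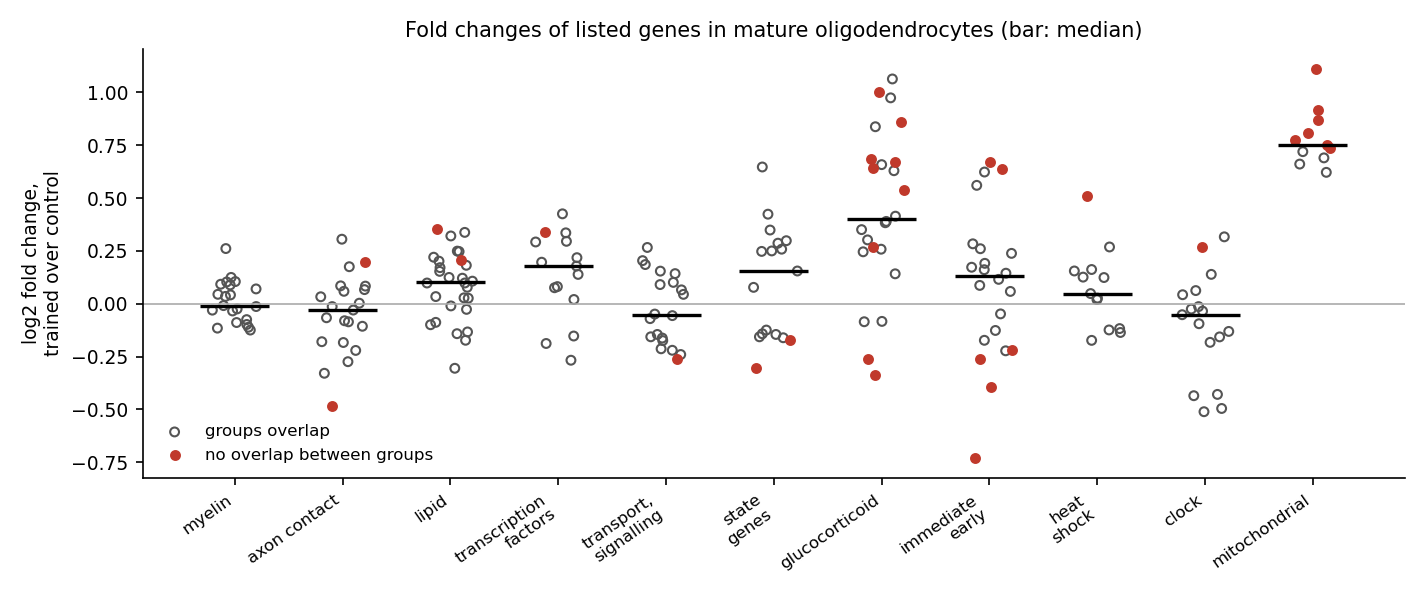
The log2 fold change of each tested gene of 11 lists, trained over control, in mature oligodendrocytes. Filled points are genes whose groups do not overlap, open points are genes whose groups do, and bars are list medians, which lie between -0.05 and 0.18 except for the glucocorticoid list (0.40) and the mitochondrially encoded genes (0.75).

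Of 21 genes of axon contact and node assembly, 0 were called and the median was -0.03. The groups lay apart for 1 on each side, beside 10.2% of all genes (10.0% after the purity filter). These were Ninj2 as given above (-0.48 ± 0.14) and Anln, and both still lay apart after the purity filter. Anln, an anillin gene active in myelin assembly, was at 431 to 506 CPM in trained and 386 to 425 CPM in control mice, without overlap and with a log2 fold change of 0.20 ± 0.13. Hapln2 had 0.31 ± 0.20 and Sema6a, a semaphorin gene, -0.33 ± 0.18, both with overlapping groups. Lipid and cholesterol genes had 28 tested, 0 called and a median of 0.10, with 20 fold changes above 1. Apod stood at 1372, 985 and 1123 CPM in trained mice 2, 4 and 6, against 927, 866 and 930 CPM in control mice 1, 3 and 5, with no overlap (log2 fold change 0.35 ± 0.15). Its groups overlapped after the purity filter (0.33 ± 0.15). Ugt8a was on the other side at -0.31 ± 0.16, and Cers2, the ceramide synthase gene of very long chains, had 0.32 ± 0.16.

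Of 15 transcription factors of the lineage, 0 were called, 12 had fold changes above 1 and the median was 0.18. Carhsp1, which encodes an RNA-binding protein kept in this list, was the 1 member without overlap, at 0.34 ± 0.16, beside 10.2% of all genes. Its groups overlapped after the purity filter (0.30 ± 0.16). Those of Sox8 (0.32 ± 0.15) and Nkx2-2 (0.33 ± 0.20) then lay apart, beside 10.0% of all genes. Nkx6-2 stood at 182, 286 and 136 CPM in trained mice 2, 4 and 6, against 119, 164 and 166 CPM in control mice 1, 3 and 5, so trained mouse 4 stood highest and trained mouse 6 lay within the control range. Sox8 had 0.34 ± 0.16, Zfp488 0.30 ± 0.22, Nkx2-2 0.29 ± 0.22, Olig2 0.22 ± 0.20, Tcf7l2 0.18 ± 0.15 (0.02 ± 0.15 after the filter) and Creb5 -0.27 ± 0.21. Of 20 genes of ion and metabolite transport and of signalling, 0 were called and the median was -0.05. Erbb4, a neuregulin receptor gene, averaged lower without overlap, at 1254 to 1363 CPM in trained and 1421 to 1691 CPM in control mice (-0.26 ± 0.14), and overlapped after the purity filter (-0.24 ± 0.14). Adora1, the adenosine A1 receptor gene, had 0.27 ± 0.17, Pde8a -0.24 ± 0.15 and Grm7, a metabotropic glutamate receptor gene, -0.21 ± 0.15. Of 17 state genes, 0 were called and the median was 0.15, and the groups lay apart for 2 members, beside 10.2% of all genes. They were Jph4, a junctophilin gene (-0.31 ± 0.16), and Ctps, a CTP synthase gene (-0.17 ± 0.17). Ptgds had 0.30 ± 0.26, with the highest value in trained mouse 4 (16334 CPM) and the next in control mouse 3 (12771 CPM).

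Genes that glucocorticoid hormone is known to induce stood higher in trained mice as a group, though none was called. Of 24 tested, 20 had fold changes above 1, the median log2 fold change was 0.40 against 0.00 over all genes, and 11 had an unadjusted p under 0.05, against 4.74% of all genes. After the purity filter the median was 0.35 and 11 of 24 had such a p. All trained mice lay above all controls for 7 and below them for 2, beside 5.18% and 4.99% of all genes, and after the purity filter for 3 and 0, beside 4.99% and 5.04%. This list was chosen with its earlier results in these samples known, so the counts are a description.

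Fkbp5, on mm10 chromosome 17 from 28399094 to 28517527 on the minus strand, encodes a co-chaperone that restrains the glucocorticoid receptor. It stood at 230, 298 and 367 CPM in trained mice 2, 4 and 6, against 157, 224 and 61.8 CPM in control mice 1, 3 and 5, a log2 fold change of 1.00 ± 0.32 (SE). The groups did not overlap, and control mouse 5 stood lowest. In the nuclei of the purity filter trained mouse 2 (242 CPM) lay below control mouse 3 (249 CPM), so the groups overlapped, and the log2 fold change was 0.94 ± 0.29. The same order at the low end held for Zbtb16, a zinc finger factor, at 333, 412 and 558 CPM in trained mice 2, 4 and 6 against 252, 351 and 123 CPM in control mice 1, 3 and 5, where the groups overlapped (0.84 ± 0.29). Hif3a, a hypoxia factor gene, stood at 125, 97.5 and 130 CPM in trained and 71.4, 85.2 and 35.5 CPM in control mice (0.86 ± 0.24), again lowest in control mouse 5.

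Other members followed different mice. Of those below, the groups of Nfkbia and Mt1 still lay apart after the purity filter, as did those of Hif3a, and those of Ddit4, Mt2, Bcl6 and Dusp1 overlapped. Ddit4, an inhibitor of the growth kinase mTORC1, stood at 122, 221 and 169 CPM in trained mice 2, 4 and 6, against 116, 115 and 83.9 CPM in control mice 1, 3 and 5 (0.69 ± 0.20). Nfkbia, the inhibitor of NF-kappaB, stood at 105, 136 and 93.2 CPM in trained and 84.7, 76.5 and 50.5 CPM in control mice (0.64 ± 0.19). The metallothionein genes Mt1 and Mt2, which bind zinc and copper, had 0.54 ± 0.18 and 0.67 ± 0.21, and control mouse 1 was lowest for both. Pdk4, which shuts pyruvate out of the citric acid cycle, had 0.97 ± 0.30 with trained mouse 2 below control mouse 3. The 2 members below all controls were Bcl6, a repressor gene (-0.34 ± 0.20), and Dusp1, a MAP kinase phosphatase gene (-0.26 ± 0.18). The receptors themselves, Nr3c1 and Nr3c2, had -0.09 ± 0.13 and -0.08 ± 0.15.

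**Figure D4:**
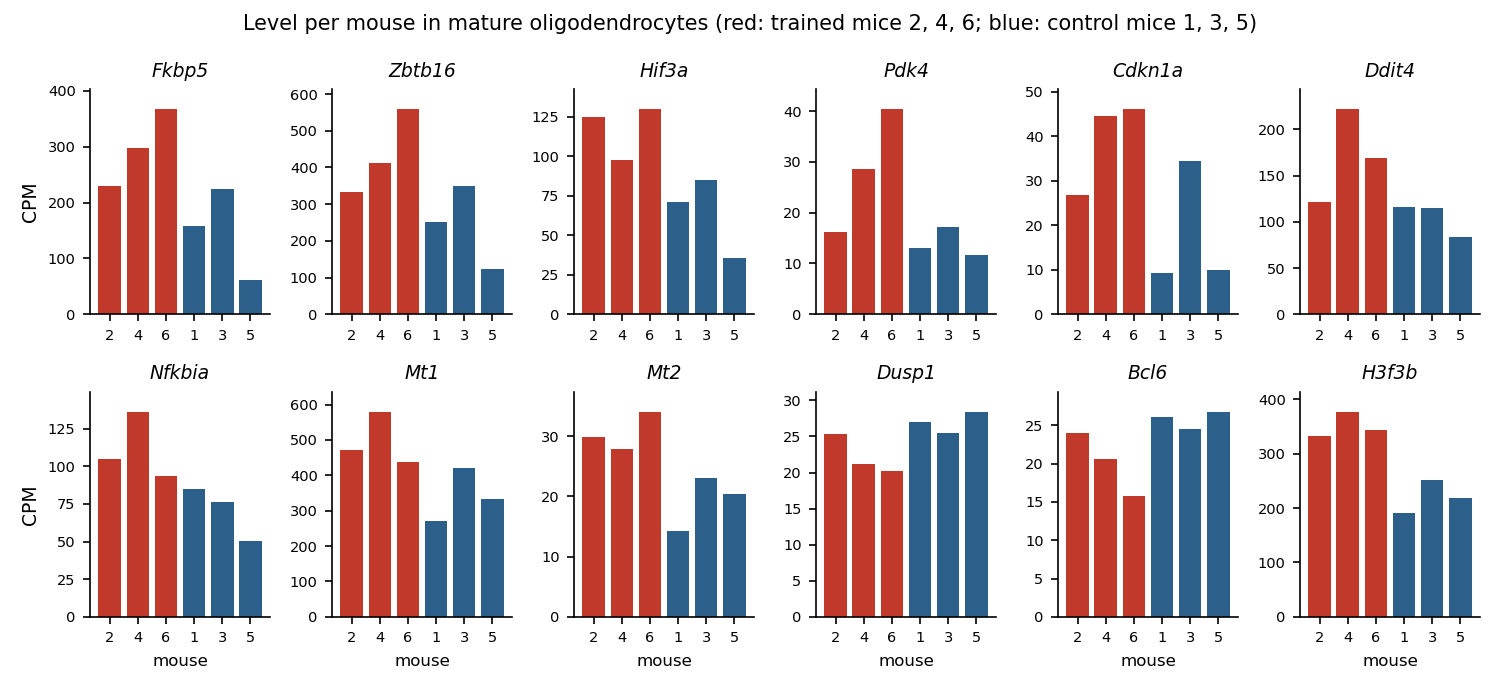
Level in CPM per mouse of 11 genes of the glucocorticoid list and of H3f3b in mature oligodendrocytes, with trained mice 2, 4 and 6 in red on the left of each panel and control mice 1, 3 and 5 in blue on the right. Control mouse 5 is lowest for Fkbp5, Zbtb16 and Hif3a, and all trained mice are above all controls for H3f3b.

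The mitochondrially encoded genes were higher in the trained mean for 11 of 11 tested, with a median log2 fold change of 0.75 (0.71 after the purity filter), and 0 were called. All trained mice lay above all controls for 7 of them, beside 5.18% of all genes, and for 7 after the filter. The cytochrome oxidase subunit gene mt-Co3 stood at 678, 424 and 341 CPM in trained mice 2, 4 and 6, against 253, 211 and 328 CPM in control mice 1, 3 and 5 (0.87 ± 0.23), and mt-Co1 at 493, 315 and 309 CPM against 231, 196 and 245 CPM (0.74 ± 0.18). Trained mouse 2 was highest for both. The NADH dehydrogenase subunit genes mt-Nd4 and mt-Nd1 had 0.81 ± 0.22 and 0.78 ± 0.24. The mitochondrial share of all UMIs in these nuclei was 0.151% ± 0.0559 in trained and 0.0893% ± 0.0158 in control mice (SD, n = 3 each), with an exact permutation p of 0.1. Such RNA lies outside the nucleus, so its level also follows how clean a nuclear preparation is, and reads can be shared with nuclear copies of these genes. That part was not tested.

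Activity, stress and clock genes were mixed. Of 22 immediate early genes tested, 0 were called, 14 had fold changes above 1 and the median was 0.13. All trained mice lay above all controls for 2, Klf6 and Fos, and below them for 4, Npas4, Fosl1, Ier5 and Dusp1, beside 5.18% and 4.99% of all genes. In the filtered nuclei this held for Klf6 and Npas4. Klf6 averaged 32.9 ± 2.48 CPM in trained and 21.0 ± 6.05 CPM in control mice (SD, n = 3 each). Fos, the classic activity gene, stood at 17.0, 25.9 and 18.9 CPM in trained mice 2, 4 and 6, against 10.8, 16.8 and 11.3 CPM in control mice 1, 3 and 5 (0.64 ± 0.25, and 0.56 ± 0.28 after the filter). Npas4, a neuronal activity factor, was at 5.52 to 10.6 CPM in trained and 11.1 to 14.3 CPM in control mice, and Gadd45b had 0.62 ± 0.32 with overlap. Of 11 stress and immune genes, 0 were called and the median was 0.22. The cell cycle inhibitor gene Cdkn1a had 1.06 ± 0.40 with control mouse 3 above trained mouse 2. Stat3 had 0.35 ± 0.14 and 0.14 ± 0.16 after the purity filter, and Nupr1 had 0.61 ± 0.39. Of 13 heat shock genes, 0 were called and the median was 0.05, with the co-chaperone gene Bag3 at 0.51 ± 0.25 (0.30 ± 0.27 after the filter), Hspa8 at 0.27 ± 0.18, Hspe1 at 0.16 ± 0.19 and Hsph1 at -0.17 ± 0.19. Of 17 clock genes, 0 were called and the median was -0.05. Per1, which glucocorticoids also induce, had 0.27 ± 0.15 without overlap, which was lost after the purity filter (0.29 ± 0.17). Rorb had -0.51 ± 0.20 and Nr1d1 -0.50 ± 0.32, both with overlap, and -0.31 ± 0.19 and -0.42 ± 0.33 after the filter. Npas2, a partner of the clock factor BMAL1, had -0.44 ± 0.20 with overlap. After the filter it stood at 1.79 to 4.80 CPM in trained and 5.99 to 11.2 CPM in control mice, without overlap (-1.27 ± 0.44). Of 18 genes of insulin and FOXO signalling, 0 were called and the median was -0.02. Pik3r1, the p85 regulatory subunit gene, had 0.21 ± 0.13 without overlap, which was lost after the purity filter (0.21 ± 0.14). Foxo1 had 0.34 ± 0.18, and 0.15 ± 0.19 after the filter.

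Markers of other cells were present at low levels, and their part in these values was not tested. Summed over 10 genes each, astrocyte markers stood at 447 to 515 CPM in trained and 474 to 547 CPM in control mice, microglial markers at 94.7 to 145 CPM and 109 to 169 CPM, and precursor markers at 235 to 304 CPM and 227 to 343 CPM. Endothelial markers (8 genes) stood at 11.1 to 19.1 CPM in trained and 8.33 to 11.5 CPM in control mice, and mural and fibroblast markers (9 genes) at 20.3 to 59.0 CPM and 30.1 to 39.6 CPM. No marker of these lists was at 0. Of 8 microglial genes tested, 0 were called, and all trained mice lay below all controls for 2, beside 4.99% of all genes. These were P2ry12 and Cx3cr1, with log2 fold changes of -0.90 ± 0.32 and -0.47 ± 0.21. After the purity filter Cx3cr1 had -0.17 ± 0.25 with overlap, P2ry12 was too low to test, and the groups lay apart for 0 of 6 tested. Of 8 astrocyte genes tested, 0 were called, and all trained mice lay above all controls for 2 and below them for 1, beside 5.18% and 4.99% of all genes. Gja1, the connexin 43 gene of astrocytes and fibroblasts, was at 16.6, 16.6 and 32.1 CPM in trained mice 2, 4 and 6, against 11.7, 10.3 and 8.35 CPM in control mice 1, 3 and 5. Its log2 fold change was 1.07 ± 0.29, and 0.77 ± 0.40 with overlap after the filter. Of 6 sex-linked genes, 4 were tested, 0 were called and the median was 0.06. The tested ones were the Y-linked genes Eif2s3y, Uty, Kdm5d and Ddx3y, and each was present in every mouse.

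The response to training differed between mature oligodendrocytes and astrocytes for a small set of genes. Both sums of each mouse entered 1 fit with mouse as a block, and edgeR called the interaction of training with class for 6 of 13231 genes (0.0453%) after Benjamini-Hochberg adjustment, with 797 (6.02%) at an unadjusted p under 0.05. In all 6 the training effect was lower in oligodendrocytes. Astrocytes were 4717 nuclei with at least 3 UMIs of Gli3, Aqp4, Slc39a12 and Gja1. Several of these genes were known from earlier results in these samples to be higher in astrocytes of trained mice, and the same mice enter both classes.

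Irs2 (mm10 chromosome 8, 10984681 to 11008458), an adaptor of the insulin and IGF receptors, stood in oligodendrocytes at 68.6, 45.1 and 47.9 CPM in trained mice 2, 4 and 6, against 57.4, 49.1 and 60.1 CPM in control mice 1, 3 and 5. In astrocytes it stood at 114, 65.8 and 95.7 CPM in trained and 30.8, 35.8 and 27.7 CPM in control mice. The groups overlapped in oligodendrocytes (log2 fold change -0.02 ± 0.18) and lay apart in astrocytes (1.55 ± 0.20), a difference of -1.57 ± 0.19 with an edgeR adjusted p of 0.0019. Arrdc3, an arrestin-domain gene that controls receptor turnover, stood in oligodendrocytes at 218, 185 and 222 CPM in trained and 179, 189 and 202 CPM in control mice. In astrocytes it stood at 30.8, 30.0 and 34.4 CPM in trained and 8.05, 13.8 and 8.55 CPM in control mice, and the difference of the effects was -1.48 ± 0.21.

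Pde8a, a phosphodiesterase gene for cyclic AMP, stood in oligodendrocytes at 457, 391 and 370 CPM in trained mice 2, 4 and 6 against 530, 402 and 508 CPM in control mice 1, 3 and 5. In astrocytes it stood at 113, 66.3 and 81.6 CPM in trained and 43.6, 46.6 and 37.3 CPM in control mice, and the difference was -1.24 ± 0.19. Arrdc3 and Pde8a were thus more abundant in oligodendrocytes of both groups than in astrocytes of either. The other genes were Far1os, a non-coding RNA antisense to Far1 (-1.37 ± 0.18), Map3k19, a kinase gene that was under 10 CPM in oligodendrocytes of every mouse (-2.41 ± 0.36), and Nr4a1, an immediate early nuclear receptor gene (-1.06 ± 0.19, adjusted p of 0.0418). After the purity filter 6 genes were called, 5 of them shared, with Nr4a1 at -0.86 and an edgeR adjusted p of 0.187. Without control mouse 5, 2 genes were called, both among the 6. Without trained mouse 2, 5 were called, 3 of them among the 6, and without control mouse 1, 12 were called, with all 6 among them, as were 11 without trained mouse 6.

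**Figure D5:**
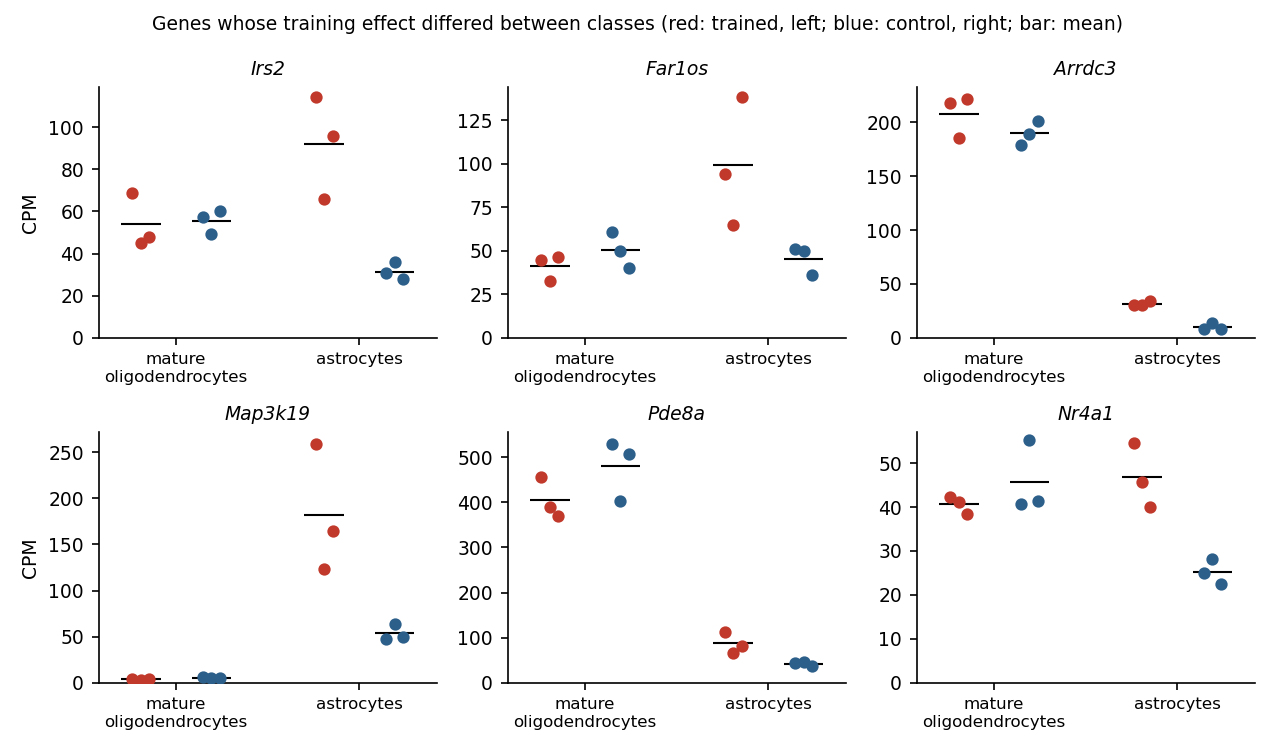
Level in CPM per mouse of the 6 genes whose training effect differed between mature oligodendrocytes and astrocytes, with trained mice in red on the left and control mice in blue on the right of each class, and bars at group means. Trained astrocytes lie above control astrocytes for every gene shown, and the groups overlap or lie the other way round in oligodendrocytes.

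For Ddit4, which was called in astrocytes, the difference did not pass the threshold. It stood at 71.2, 93.8 and 77.3 CPM in astrocytes of trained mice 2, 4 and 6, against 47.5, 42.2 and 42.1 CPM in those of control mice 1, 3 and 5, a log2 fold change of 0.87 ± 0.15 beside 0.69 ± 0.20 in oligodendrocytes. The difference was -0.20 ± 0.17 (edgeR adjusted p of 0.958). Of 19 genes listed for their higher level in astrocytes of trained mice, 17 were tested in oligodendrocytes, 0 were called, 12 had fold changes above 1 and the median was 0.14. Arhgap31, a GTPase-activating protein gene, had 0.63 ± 0.24 in oligodendrocytes and 1.16 ± 0.19 in astrocytes, and after the purity filter 0.58 ± 0.23 in oligodendrocytes. Usp53 had 0.37 ± 0.18 in oligodendrocytes, 0.09 ± 0.20 there after the filter, and 1.16 ± 0.18 in astrocytes.

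For orientation, training within each of these classes alone gave 16 of 12581 genes in astrocytes (0.127%, all higher, with 7.24% at an unadjusted p under 0.05), 1 of 8944 in precursors (0.0112%, lower, with 4.19%) and 0 of 19614 in all other nuclei (3.05% unadjusted), by edgeR.

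Against precursors the training effect differed for 0 of 12080 genes (587 genes, or 4.86%, unadjusted), and against all other nuclei for 0 of 18491 (1096, or 5.93%, unadjusted), by edgeR's interaction test. DESeq2 called 0 in both. The gene of smallest p against precursors was Zfp804a, a zinc finger gene, with log2 fold changes of -0.71 ± 0.21 in oligodendrocytes and 0.32 ± 0.22 in precursors and a difference of -1.05 ± 0.23 (edgeR adjusted p of 0.443). Against all other nuclei, leaving out trained mouse 6 gave 133 genes, leaving out control mouse 3 gave 35, and the purity filter gave 5.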

How the data were processed

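Nuclear RNA of 6 mice was sequenced with 10x Genomics 3' v3.1 chemistry, per the labels' protocols. The authors deposited UMI counts per gene and barcode, made with Cell Ranger 4.0.0 on mm10, per the submitters' processing notes. Whether the deposited matrix joins the shallow and deep runs of each library, whether intronic reads were counted and how barcodes were filtered were not given in the sources used here, and each mouse was treated as 1 sample. Barcodes with under 500 genes or at least 5% mitochondrial UMIs were left out (243 of 51926). Raw UMIs were summed per mouse and class, and tested with edgeR 4.0.16 (TMM scaling, filterByExpr, quasi-likelihood test, Benjamini-Hochberg threshold of 0.05) in R 4.3.3, with DESeq2 1.42.0 as an alternative. The steps were tested on simulated data. Interactions had mouse as a block. Shares were compared by exact two-sided permutation over mice. Scrublet, run per mouse through scanpy 1.11.5, had an expected doublet rate of 6%. Detection was read after thinning nuclei to 1000 UMIs. Summed depth per mouse limits the precision of low genes, and counting intervals would not cover differences between mice.

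Genes were named by rule. From the training fit came, on each side, the 10 genes with the smallest p among those whose groups did not overlap. From each list came up to 4 tested members of smallest p, or 8 for the myelin, transcription factor, glucocorticoid and state lists. The 15 genes of highest ratio over other nuclei, the 10 of highest variance over mean and up to 3 genes each way per interaction were added, and clone-named genes were counted but not named. Mog, Mt1, Mt2, Bcl6, Dusp1, Nr3c1, Nr3c2 and the lineage genes were named besides, with their values known. The members and lists were chosen with earlier results of these data known. The purity filter and the settings that leave out nuclei with fibroblast genes or over 5000 UMIs were chosen after seeing the data. Some genes that these rules pick are not reported here.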

Additional observations from a re-analysis of the deposited data

Results flagged for a closer look

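The training effect of 6 genes differed between mature oligodendrocytes and astrocytes by edgeR's interaction test. On the log2 scale, the effect in oligodendrocytes minus that in astrocytes was -1.57 for Irs2, -1.37 for Far1os, -1.48 for Arrdc3, -2.41 for Map3k19, -1.24 for Pde8a and -1.06 for Nr4a1. Far1os is antisense to Far1, and whether counting used strand is not given in the sources used here, so its count is uncertain.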

How the results depend on the processing

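For trained against control mice, where edgeR called 0 genes, DESeq2 called 9, no filter on low counts gave 86 and the mitochondrial share as a covariate 6, and leaving out 1 mouse gave 0 to 2, with the 2 without trained mouse 2. The other alternatives run gave 0. The interaction with precursors, 0 in the main setting, gave 13 with no filter, 1 without doublets and 0 to 3 with 1 mouse left out. The interaction with astrocytes, 6 in the main setting, gave 83 with no filter and 2 to 12 with 1 mouse left out, and 11 without trained mouse 6. The interaction with all other nuclei, 0 in the main setting, gave 56 with no filter, 5 without doublets, 5 after the purity filter and 1 to 133 with 1 mouse left out. The cause was not tested. The difference in share, -1.86 percentage points, kept its sign in all alternatives run, was -1.24 with no overlap between groups when exclusion genes had 0 UMIs, and was -2.64 to -0.91 with 1 mouse left out, with -0.91 without trained mouse 4. The log2 ratio to precursors, 0.30, was 0.0045 to 0.60 with 1 mouse left out, lowest without trained mouse 6. No paired analysis was possible because trained and control mice carry different numbers and share none. Nuclei were shallow, so low genes were not resolved.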
